A study of Solanum tuberosum and Solanum acaule with 12 samples.

Results

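Shoots of Solanum acaule, a wild tuber-bearing potato, were compared between a freezing treatment and control plants. The comparison covered 6 of the 12 libraries of the series, taken by their labelled species and treatment. The 3 freezing libraries came from shoot explants in a chamber whose temperature was lowered from 22 °C to -4 °C, by 2 °C each hour. The 3 control libraries came from plants in long days. No other genotype, allele or agent is named. The remaining 6 libraries, of the cultivar Atlantic, were not used. The labels call the replicates biological and do not say whether they came from separate plants, so each p-value reflects only how far these libraries spread, which may be technical. The sources used here do not give plant age, the time held at the lowest temperature or the control temperature.

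S. acaule is known as a frost-hardy species of the Andes, while the cultivated potato is damaged by freezing. In plants in general, falling temperature induces the CBF transcription factors, which in turn switch on protective genes, and represses many genes of growth and photosynthesis. S. acaule is an allotetraploid, so most genes are present on 2 chromosome sets derived from different ancestors, and the copies of a gene may respond alike or differently.

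Each measured unit is a locus, the sum of all assembled transcripts that share an assembly number. Its value is a signal in the form of TPM (a level per transcript length) scaled by a TMM library factor. Loci at a signal of 1 or more in at least 3 of the 6 libraries were tested, 29331 of 70880. Neither the loci nor the gene models they are placed on matched the table of gene names, so loci are named by their identifiers, no function is attached to any of them, and the shoot label could not be checked against marker genes. A separate table places transcripts on gene models of chromosomes 1 to 12, each in a set 1 and a set 2. Its genome build is not named, and positions are given as deposited.

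One control library, replicate 3, was unlike the rest. Set 2 held 53.4%, 53.3% and 52.8% of the signal placed on the chromosome sets in freezing replicates 1 to 3, against 53.4%, 52.6% and 65.6% in control replicates 1 to 3. The 6 most abundant loci with no placement held 18.0%, 10.02% and 16.1% of all signal in the freezing libraries, against 24.2% and 9.83% in control replicates 1 and 2, and summed to a signal of only 5.83 in control replicate 3. The most abundant of them, AcauleEVm074824, was at 60677, 49449 and 63854 in the freezing libraries, against 100628, 31610 and 3.61 in the controls. Control replicate 3 thus all but lacked RNA that was a large share of every other library. Over all loci, some of these 6 among them, 170 were at 10 or more in the other 5 libraries and under 1 in control replicate 3. Another 626 were under 1 in the other 5 and at 10 or more in it. The same counts for each of the other libraries were 0 or 1. Over the tested loci, control replicate 3 correlated at 0.807 to 0.834 (Pearson's r on log2 values, across loci, which are not independent) with the other libraries, which correlated at 0.895 to 0.960 among themselves. The origin of this library is therefore in doubt, and whether it came from the same plant material as the others was not tested. Counts of called loci and set copies are given with all 6 libraries and again with 5, without control replicate 3.

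**Figure D1:**
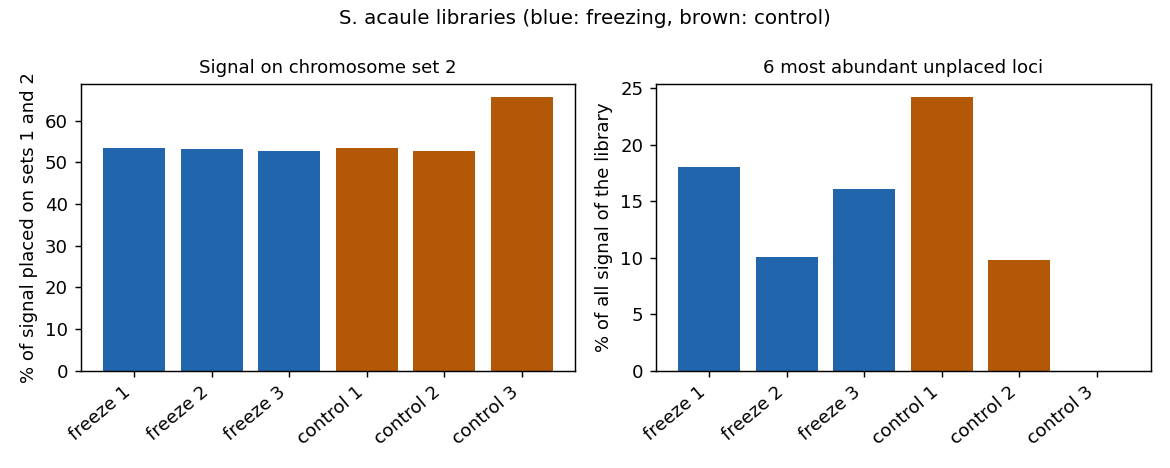
Left, the percentage of signal placed on chromosome sets 1 and 2 that lay on set 2; right, the percentage of all signal in the 6 most abundant loci with no placement. Each bar is 1 library, blue for freezing and brown for control. Control replicate 3 is at 65.6% on the left, against 52.6% to 53.4% in the other 5, and shows no visible bar on the right, where the other 5 lie from 9.83% to 24.2%.

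No library-wide measure separated the groups. The number of loci at a signal of 1 or more averaged 29181 ± 819 after freezing and 30086 ± 1779 in control (SD, n = 3 each; exact permutation p = 0.5, two-sided). The 100 most abundant loci held 30.7% ± 3.03 of the signal after freezing and 27.3% ± 8.86 in control (SD, n = 3 each; exact permutation p = 0.6). The median level of detected loci was 6.80 ± 0.437 after freezing and 7.06 ± 0.553 in control (SD, n = 3 each; exact permutation p = 0.5). Placed transcripts held 69.0% ± 4.61 of the signal after freezing and 71.3% ± 10.4 in control (SD, n = 3 each; exact permutation p = 0.8). The share of set 2 was 53.1% ± 0.313 after freezing and 57.2% ± 7.26 in control (SD, n = 3 each; exact permutation p = 0.7). Adjusted over these 5 measures, every p was 0.8, and 3 libraries against 3 cannot go below 0.1. Without control replicate 3, freezing minus control changed sign for the 100 most abundant loci, to -0.99 percentage points, and for placed signal, to 2.25 points. The difference also changed sign for the share of set 2, to 0.13 points.

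Loci were called in both directions after freezing. With all 6 libraries, limma called 83 loci higher and 80 lower at a Benjamini-Hochberg adjusted p under 0.05, 0.556% of the loci tested. The smallest called change was 1.34 on the log2 scale, and the median was 1.97 for higher loci and -2.47 for lower loci. Without control replicate 3, 316 loci were higher and 382 lower, 2.38% of those tested, with medians of 1.72 and -1.79. At an unadjusted p under 0.05, 4704 loci (16.0%) passed with 6 libraries and 6386 (21.8%) with 5. The split by direction in the 5-library fit turned with the setting: it was 206 higher and 168 lower with the minimum raised to 5, 165 and 138 with placed transcripts only, 287 and 266 with a pseudocount of 0.1, and 21 and 147 with no filter. The count rests on every library: 42 calls were made when control replicate 1 was removed, 4 when control replicate 2 was, and 9, 4 and 8 when freezing replicates 1, 2 and 3 were. Starting from 5 libraries, limma called 0 loci once control replicate 1, control replicate 2 or freezing replicate 3 was also removed (4097, 4064 and 5582 at an unadjusted p under 0.05). Removing freezing replicate 1 gave 79 and removing freezing replicate 2 gave 10.

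Several risen loci had no control library above 27.4. AcauleEVm007635, which has no placement, was at 225, 343 and 327 after freezing, against 8.57, 7.92 and 10.7 in control. The locus changed by 4.88 on the log2 scale, with an SE of 0.22 and a limma adjusted p of 0.00297, and all 5 of its transcripts with a mean of at least 1 were higher. AcauleEVm007875, on chromosome 2 of set 1 at 43179668 to 43184669 (gene model g23094), was at 158, 192 and 197 after freezing, against 9.07, 4.22 and 8.22 in control. These loci were separated from control by more than 10 times the highest control value, and control replicate 3 lay with the other controls in both. AcauleEVm013553, on chromosome 6 of both sets (gene models g44028 and g46810), was at 115, 194 and 154 after freezing, against 5.64, 11.9 and 14.9 in control (a log2 change of 3.78 ± 0.37 SE, limma adjusted p = 0.0215). AcauleEVm005694, on chromosome 8 of set 2 at 1626743 to 1630837 (g53940), was at 186, 418 and 183 after freezing, against 8.69, 15.4 and 27.4 in control. Freezing replicate 2 was the highest library there, and all 11 transcripts of the locus were higher after freezing. AcauleEVm043573, with no placement, was at 34.2, 72.7 and 72.8 after freezing, against 3.07, 3.75 and 1.08 in control. AcauleEVm034599, on chromosome 3 of set 2 at 48833664 to 48837371 (g31444), was at 11.3, 17.0 and 19.95 after freezing, against 0.492, 0.610 and 0.375 in control, under the minimum of 1 in every control library.

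Other named risen loci included those with the highest levels after freezing. AcauleEVm011985, on chromosome 2 of set 2 at 45727780 to 45730989 (g25960), was at 804, 941 and 876 after freezing, against 137, 77.1 and 46.5 in control, a change of 3.45 on the log2 scale with an SE of 0.40 (limma adjusted p = 0.0314). The freezing libraries differed little there, and the controls spread nearly 3-fold. AcauleEVm011536, on chromosome 6 of both sets (g43311 and g46133), was at 352, 415 and 537 after freezing, against 103, 109 and 106 in control. Its change was smaller, 2.00 (SE 0.23, limma adjusted p = 0.0288), on controls that nearly coincided, and 3 of its 5 transcripts with a mean of at least 1 were higher. AcauleEVm016370, a single transcript on chromosome 9 of set 1 at 57430955 to 57434136 (g58236), was at 269, 442 and 542 after freezing, against 43.9, 67.7 and 40.6 in control. AcauleEVm008778, on chromosome 5 of both sets (g38115 and g40169), was at 238, 292 and 228 after freezing, against 24.2, 19.1 and 13.7 in control (a log2 change of 3.69 ± 0.24 SE, limma adjusted p = 0.00508). In each of these loci the lowest freezing library exceeded the highest control, which the rule for naming loci asks for.

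The 6 lower loci with the largest changes fell to a signal under 4 in every freezing library. AcauleEVm021771, on chromosome 9 of both sets (g56463 and g58716), was at 1.95, 1.57 and 2.03 after freezing, against 48.2, 51.6 and 54.7 in control, a change of -4.21 on the log2 scale with an SE of 0.20 (limma adjusted p = 0.00297). AcauleEVm007686, on chromosome 4 of both sets (g32713 and g35263), was at 2.07, 1.89 and 2.06 after freezing, against 40.6, 51.5 and 48.1 in control. All 8 of its transcripts with a mean of at least 1 were lower, and both loci were nearly constant within each group. AcauleEVm003825, on chromosome 10 of both sets (g7 and g2101), was at 2.09, 2.12 and 1.67 after freezing, against 35.6, 53.3 and 42.2 in control. AcauleEVm003652, on chromosome 11 of both sets (g5741 and g7855), was at 1.16, 1.91 and 1.97 after freezing, against 32.2, 42.8 and 57.7 in control. AcauleEVm003018, on chromosome 6 of set 2 at 35262973 to 35266583 (g45371), was at 0.511, 0.641 and 0.511 after freezing, against 18.7, 23.7 and 27.0 in control. It was the only one of the 6 under 1 in every freezing library. AcauleEVm016800, on chromosome 3 of set 2 at 1023241 to 1024222 (g29376), was at 2.86, 3.20 and 1.94 after freezing, against 39.1, 140 and 130 in control, with control replicate 1 well below the other controls (a log2 change of -4.64 ± 0.50 SE, limma adjusted p = 0.0252).

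The most abundant lower loci shared a low control replicate 1. AcauleEVm015923, placed on 5 gene models of chromosome 5 over both sets, was at 162, 155 and 106 after freezing, against 759, 2198 and 1765 in control (a log2 change of -3.36 ± 0.45 SE, limma adjusted p = 0.042). AcauleEVm015701, on chromosome 3 of both sets (g26467 and g29370), was at 49.2, 91.9 and 54.6 after freezing, against 405, 1116 and 888 in control. AcauleEVm016528, on chromosome 3 of set 1 at 49025018 to 49031068, was at 24.2, 28.0 and 14.1 after freezing, against 125, 355 and 390 in control. AcauleEVm017508, on chromosome 1 of set 1 at 67154650 to 67157155 (g15828), was at 21.3, 25.9 and 12.7 after freezing, against 114, 279 and 308 in control. Control replicate 1 was the lowest control in each of the 4, by more than 2-fold. It stayed above every freezing library, which the rule for naming loci asks for. The unplaced locus AcauleEVm064852 was at 1.38, 0.498 and 0 after freezing, against 9.92, 12.5 and 22.1 in control. AcauleEVm107576, also unplaced, was at 1.49, 1.41 and 1.36 after freezing, against 10.6, 14.3 and 18.5 in control.

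**Figure D2:**
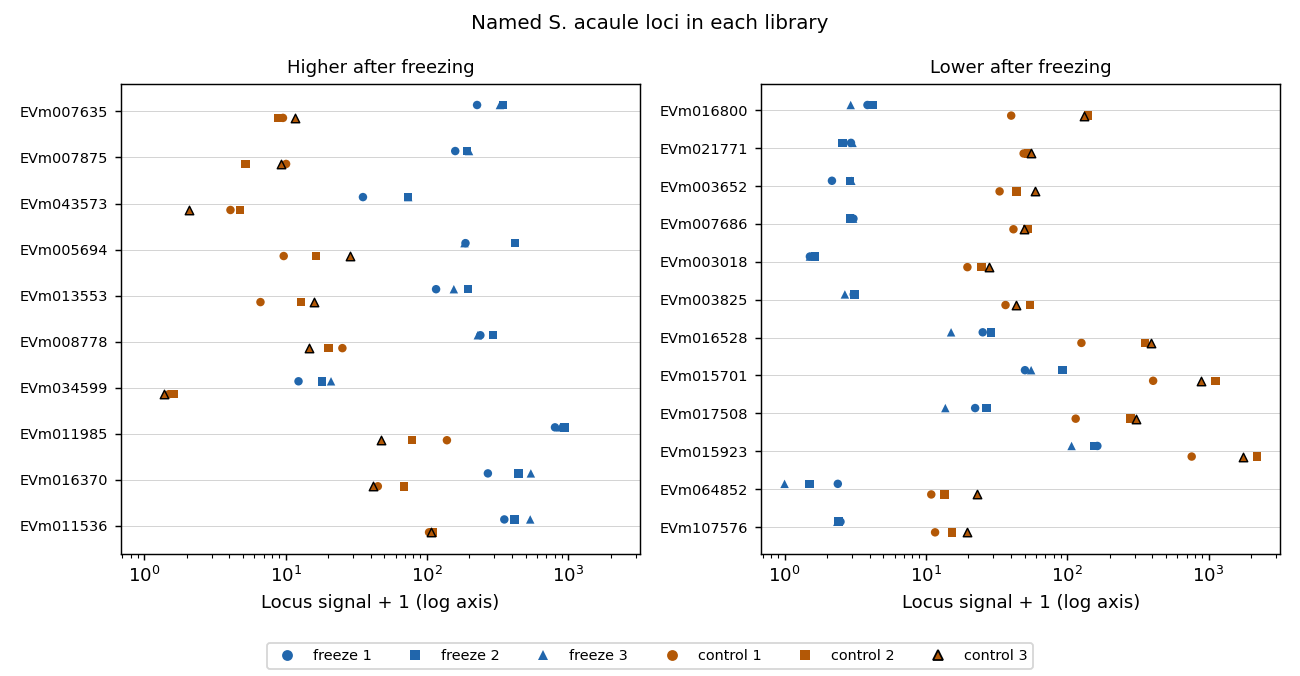
Signal plus 1 on a log axis in each library for the 22 named loci called with all 6 libraries, ordered by the size of the change; EVm stands for AcauleEVm. Blue symbols are freezing libraries, brown symbols controls, and control replicate 3 has a black outline. Freezing and control symbols, control replicate 3 included, do not overlap at any locus, because the rule for naming loci asks for this.

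Most of the named calls were lost when certain single libraries were removed. With a library left out, AcauleEVm007635 and AcauleEVm021771 kept their call each time (highest limma adjusted p = 0.0433 and 0.0459). Among the 10 named higher loci, 5 lost their call when control replicate 1 was removed, 8 when control replicate 2 was and 9 when any freezing replicate was (limma adjusted p = 0.0515 to 0.181). Among the 12 named lower loci, 2 lost their call when control replicate 1 was removed, 11 when control replicate 2 was, and 9, 10 and 9 when freezing replicates 1, 2 and 3 were (limma adjusted p = 0.0528 to 0.236). Leaving out control replicate 3 cost none of the 22 their call. No log2 change of a named locus changed sign in any of these fits, which the rule of no overlap between groups fixed in advance.

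By expression level, the share of called loci with 6 libraries was higher in each class up to a mean of 1000. With 6 libraries, 69 of 16720 loci with a mean signal under 10 were called (0.413%), 77 of 11134 from 10 to 100 (0.692%) and 17 of 1413 from 100 to 1000 (1.20%), against 0.556% of all loci. None of the 64 loci at 1000 or more was called by limma, with 11 of them at an unadjusted p under 0.05. The median SD between replicates of a group was 0.47 on the log2 scale under 10, 0.33 from 10 to 100, 0.40 from 100 to 1000 and 0.69 at 1000 or more. Replicates of the most abundant loci therefore agreed least. Without control replicate 3 the gradient was gone, at 2.25%, 2.59% and 2.34% of loci in the 3 lower classes, beside 2.38% of all, and again 0 of 64 (9 unadjusted). In this fit 132 loci under 10 were higher and 245 lower, of which 37 and 129 had no placement, while 163 from 10 to 100 were higher and 125 lower, and 21 from 100 to 1000 were higher and 12 lower. Differences between level classes were not tested.

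**Figure D3:**
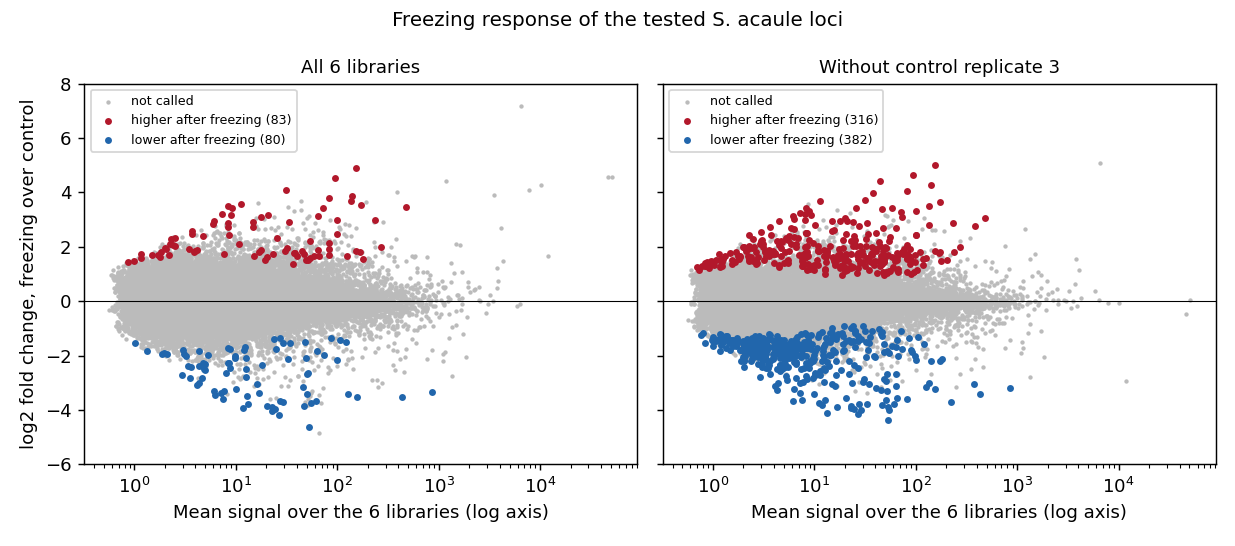
Log2 fold change of freezing over control against the mean signal of each tested locus over the 6 libraries, on a log axis, with all libraries on the left and without control replicate 3 on the right. Red points were called higher, blue points lower and grey points were not called. The right panel holds 698 called loci and the left 163, and no locus with a mean of 1000 or more is called in either.

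With 6 libraries, 22 of the 83 higher loci were under 1 in every control library, and 20 of the 80 lower loci were under 1 in every freezing library. These loci passed the filter only through the group where they were higher, so their counts are a description. A signal under 1 is not absence: AcauleEVm034599 and AcauleEVm003018 had a signal in every library. At the other end, 17 higher loci were at 100 or more in every freezing library and 8 lower loci at 100 or more in every control. Without control replicate 3, 75 of 316 higher loci were under 1 in both controls and 83 of 382 lower loci under 1 in every freezing library. The filter still counted control replicate 3, and these 83 passed it only because that library was at 1 or more too. These counts are also a description, and how many of all tested loci were this low in a group was not counted.

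By placement, the calls with 6 libraries were mostly higher on set 1 only and mostly lower on set 2 only, and with 5 libraries they were near even on each. Loci placed on set 1 only gave 17 higher and 6 lower calls of 3677 tested, and loci placed on set 2 only gave 11 higher and 21 lower of 4850. Loci on both sets gave 42 higher and 39 lower of 13785, and loci with no placement 13 and 14 of 7017. With the minimum raised to 5 the calls were 8 higher and 6 lower on set 1 only and 10 and 16 on set 2 only, and with a pseudocount of 5 they were 14 and 5 on set 1 only and 10 and 13 on set 2 only. The median log2 change of all tested loci was 0.15 for set 1 only, against 0.02 for set 2 only and for both sets. Control replicate 3, whose signal lay more on set 2, moved with this difference: without it the calls were 49 higher and 44 lower on set 1 only, 59 and 61 on set 2 only, and the median changes were 0.01 in all 3 classes. Differences between placement classes were not tested.

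Loci with no placement fell more often than they rose once control replicate 3 was left out. Of 7017 tested, 49 were higher (0.698%) and 169 lower (2.41%), beside 1.08% higher and 1.30% lower among all loci. Loci on both sets had 159 higher (1.15%) and 108 lower (0.783%) of 13785. The median log2 change over all unplaced loci was -0.13 in this fit. The 169 lower unplaced loci had medians of 1.44, 1.31 and 1.47 in the freezing libraries, against 7.70, 6.86 and 2.39 in control replicates 1 to 3. Of the 169, 52.7% consisted of 1 transcript, beside 43.4% of all tested unplaced loci. Control replicate 3 was under 1 in 25.4% of the 169, beside 41.7% of all tested unplaced loci. It was not used in this fit, but it counted in the filter that chose the tested loci. A locus under 1 in every freezing library was tested only if control replicate 3 was at 1 or more. This contrast is therefore in part built in. Control replicate 3 was below every freezing library in 66 of the 169, beside 3795 of all 7017. The 169 were chosen for low freezing values, which makes this rarer among them, so it is not a separate check. With 6 libraries 14 of the 169 were called. The excess of lower over higher unplaced loci was also present with 5 libraries rescaled by their median ratio (48 higher and 173 lower) and with the minimum raised to 5 (20 and 51).

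**Figure D4:**
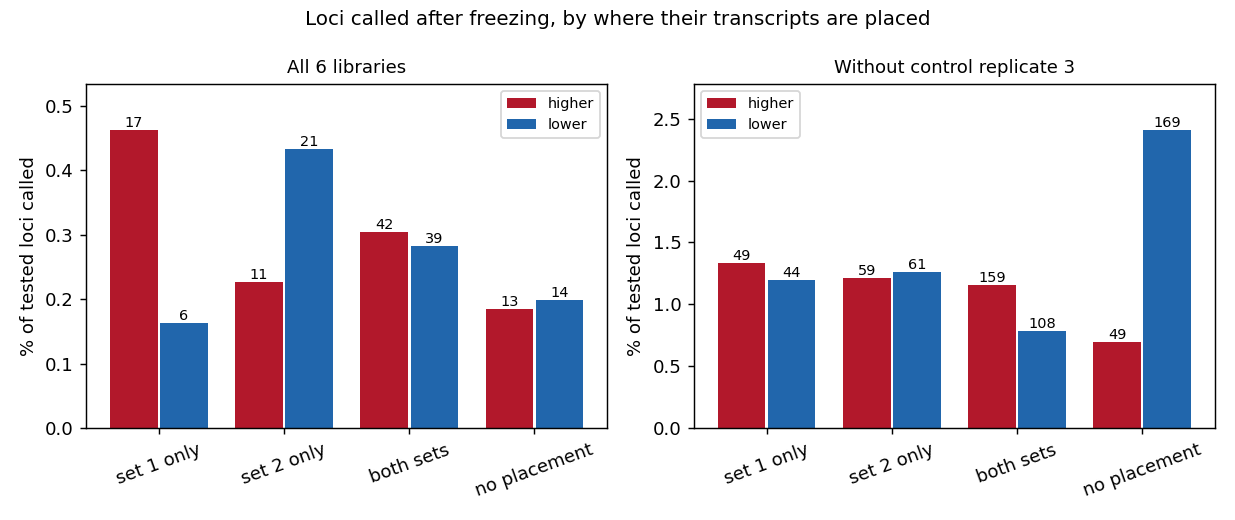
Percentage of tested loci called higher (red) or lower (blue) after freezing, by where the transcripts of the locus are placed, with all 6 libraries on the left and without control replicate 3 on the right; the axes differ in scale and the numbers above the bars are counts of loci. Set 1 only leans to higher (17 and 6) and set 2 only to lower (11 and 21) on the left alone, and unplaced loci lean to lower (49 and 169) on the right.

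Called loci lay on all 12 chromosomes. With 5 libraries, among loci placed on a single chromosome number, the share ran from 1.52% on chromosome 8 (23 of 1515) to 2.86% on chromosome 10 (38 of 1329) and 2.82% on chromosome 3 (60 of 2126), beside 2.38% of all loci. The share of all loci includes loci on no chromosome, of which 218 of 7019 (3.11%) were called. Chromosome 2 had 31 higher and 17 lower loci and chromosome 4 had 24 and 11, while chromosome 9 had 12 and 18. With 6 libraries the share ran from 0.288% on chromosome 12 (4 of 1390) to 0.908% on chromosome 5 (12 of 1321), on few loci each. These differences between chromosomes were not tested.

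Where both copies of a called locus were tested, their changes nearly always had the same sign. Signals were summed over the transcripts placed on each set, giving 14766 set 1 copies and 16202 set 2 copies that reached the minimum. With 6 libraries limma called 8 set 1 copies higher and 6 lower, and 6 set 2 copies higher and 21 lower, in all 0.132% of copies, 0.0452% higher and 0.0872% lower. Without control replicate 3 it called 107 and 77 on set 1 and 111 and 94 on set 2 (1.26% of copies, 0.704% higher and 0.552% lower), or 1.25% of set 1 copies and 1.27% of set 2 copies. The 41 calls with 6 libraries became 0 when control replicate 1, control replicate 2 or any freezing replicate was removed (limma, 2306 to 4107 at an unadjusted p under 0.05). Among the 698 loci called with 5 libraries, 198 had both copies tested. Both copies were higher at all 126 higher loci, with median changes of 1.56 on set 1 and 1.64 on set 2. Both were lower at 71 of 72 lower loci, with medians of -1.66 and -1.62. The locus value includes the signal of its copies, beside any transcripts left out of them, so this sameness of direction is in part built in. The changes of the copies differed by at least 1 on the log2 scale at 17 of the higher and 14 of the lower loci.

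Single loci show both patterns. At AcauleEVm008778 the set 1 copy was at 113, 136 and 108 after freezing, against 9.98, 8.25 and 5.16 in control, and the set 2 copy at 125, 157 and 120 after freezing, against 14.2, 10.9 and 8.55 in control. Both copies rose to nearly the same level (log2 fold changes 3.80 and 3.48, limma adjusted p = 0.0163 each). Every placement of this locus has a deposited score of 2, where scores run from 1 to 40 and their meaning is unstated. At AcauleEVm021771 the set 1 copy was at 1.22, 0.663 and 0.753 after freezing, against 26.2, 23.9 and 0.086 in control. The set 2 copy of that locus was at 0.726, 0.908 and 1.27 after freezing, against 22.0, 27.7 and 54.6 in control. The set 2 copy was called lower (limma adjusted p = 0.0325) and the set 1 copy was not (limma adjusted p = 0.498), with control replicate 3 holding nearly all its signal on set 2, at the summed level of the other controls. In control replicate 3 the reverse held at AcauleEVm025579, with a set 1 copy at 1.56, 1.36 and 0.849 after freezing, against 43.0, 46.4 and 86.4 in control, and a set 2 copy at 6.48, 7.81 and 5.94 after freezing, against 67.5, 89.4 and 11.8 in control. Without that library both copies were called lower, with log2 changes of -4.35 and -3.35 (limma adjusted p = 0.0065 and 0.00671). At AcauleEVm021085 the copies were unlike in level. Its set 1 copy was at 11.1, 17.4 and 10.5 after freezing, against 0.064, 0 and 0.034 in control, and its set 2 copy at 117, 181 and 108 after freezing, against 40.5, 48.0 and 61.3 in control. The log2 change without control replicate 3 was 3.73 on set 1 (SE 0.27, limma adjusted p = 0.00962) and 1.56 on set 2 (SE 0.28, limma adjusted p = 0.0634). The sources used here do not say how reads shared by near-identical copies were assigned, so signal may have moved between copies.

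**Figure D5:**
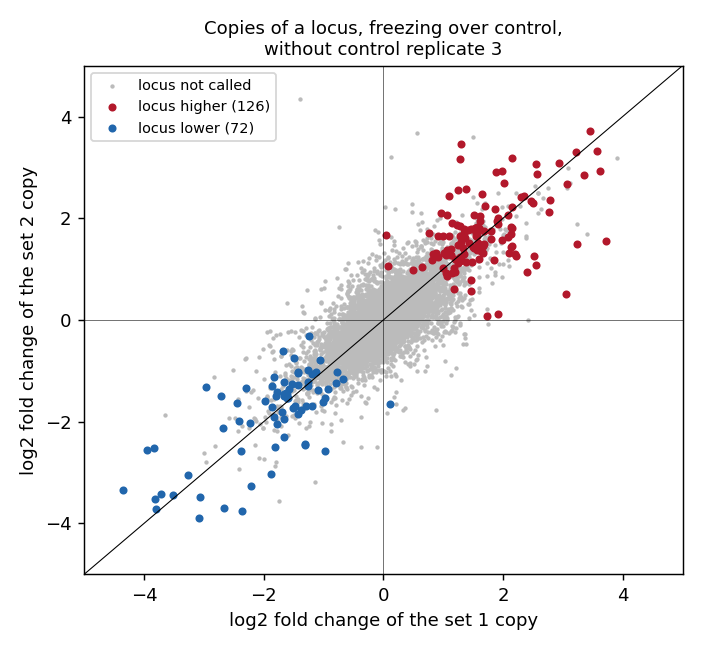
Log2 fold change of the set 2 copy against that of the set 1 copy for loci with both copies tested, freezing over control, without control replicate 3; the line marks equal change. Red points are the 126 loci called higher and blue points the 72 called lower. They lie along the line, and at 1 lower locus the set 1 copy lies above 0.

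The balance of the sets at a locus was not called as changed. Limma called 0 of 10211 log2 ratios of set 1 over set 2 with 6 libraries (284 at an unadjusted p under 0.05) and 0 without control replicate 3 (1392), which does not show that the ratios were equal. Among the 198 called loci with both copies, the median ratio was 0.03, -0.08 and -0.04 in the freezing libraries, against -0.02, -0.003 and -0.81 in the controls. Over all 10211 loci it was -0.06, -0.07 and -0.08 in the freezing libraries, against -0.06, -0.06 and -1.12 in the controls. Control replicate 3 was therefore shifted to set 2 at the called loci too.

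Some called loci lay next to each other. Called loci whose transcripts spanned under 50000 bases were grouped where gaps were at most 50000 bases. With 5 libraries, higher loci formed 43 such groups and lower loci 27. These groups held 92 placements of higher loci and 67 of lower loci, beside 263 and 212 called loci on chromosomes. With 6 libraries there were 10 and 6 groups. Each set was grouped apart, so a locus placed in several places can count more than once. How often tested loci lie this close was not counted, so the counts do not show that called loci cluster. The largest groups were on chromosome 3 of set 2, with 9 lower loci from 1002682 to 1024222, and on chromosome 2 of set 2, with 5 higher loci from 45718645 to 45790485. Loci that overlap may be parts of the same gene or share reads. Of the 698 called loci, 480 were placed and 74 of these shared a gene model with another called locus, and none of the 43 shared gene models had called loci in opposite directions.

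The chromosome 3 group held the named loci AcauleEVm016800, AcauleEVm015701 and AcauleEVm025317. Their placements on set 2 had deposited scores of 1 to 3, 2 to 30 and 3, on a scale from 1 to 40 of unstated meaning. Several members of the group overlap in position. Of 18 tested loci in a window around the group on set 2, 9 were lower with 5 libraries and 4 with 6, and none was higher. Of the 9, AcauleEVm016813 was also placed on chromosome 2 of set 1, at 28425610 to 28431627. AcauleEVm034688, at 1003277 to 1005746, was at 4.45, 10.5 and 3.99 after freezing, against 62.0, 183 and 65.1 in control. AcauleEVm016814, at 1002682 to 1003647, was at 5.11, 6.93 and 3.46 after freezing, against 35.1, 98.7 and 163 in control (limma adjusted p = 0.0389 with 5 libraries and 0.051 with 6). The nearest loci on either side were not called. AcauleEVm001797, which ends at 1002573, was at 66.3, 81.4 and 96.4 after freezing, against 60.4, 69.8 and 106 in control. AcauleEVm018944, which begins at 1024864, was at 5.06, 5.10 and 4.93 after freezing, against 7.53, 6.38 and 7.90 in control (limma adjusted p = 0.308 and 0.406 with 5 and 6 libraries). These flanking loci are also placed on set 1, at 886925 to 892452 and 924420 to 929481. The set 1 window held 11 tested loci, of which 2 were lower with 5 libraries and 1, AcauleEVm015701, with 6, and none was higher. The other was AcauleEVm043761, at 15.1, 24.5 and 10.99 after freezing, against 93.1, 229 and 8.80 in control. It was called lower without control replicate 3, where that library lay below every freezing library (limma adjusted p = 0.0419 with 5 libraries and 0.479 with 6).

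The chromosome 2 group held AcauleEVm011985 with its neighbours. AcauleEVm006709, at 45718645 to 45721897, was at 47.1, 108 and 88.0 after freezing, against 8.22, 4.95 and 20.5 in control. AcauleEVm010076, at 45776653 to 45780503, was at 133, 261 and 139 after freezing, against 12.3, 21.3 and 33.3 in control. AcauleEVm010191, at 45783158 to 45790485, was at 40.7, 54.3 and 20.8 after freezing, against 3.50, 3.999 and 1.97 in control. The fifth member, AcauleEVm011982, shares gene model g25960 with AcauleEVm011985 and so may share its reads.

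Leaving out control replicate 3 added 535 loci to the calls, and all 163 loci called with 6 libraries were called in the same direction. At 251 of the 535, control replicate 3 lay nearer to the freezing mean than to the mean of the other controls on the log2 scale, and at 133 it lay beyond the freezing mean. At none of the 163 did it lie nearer to the freezing mean. The 6-library fit used it as a control, so this contrast follows at least in part from how the loci were chosen. The added loci changed less, by a median of 1.66 with 5 libraries, beside 2.23 for the 163.

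The most abundant of the added loci differed in where control replicate 3 stood. AcauleEVm011982, on chromosome 2 of both sets, was at 673, 803 and 624 after freezing, against 115, 88.3 and 6.83 in control. Here control replicate 3 was far below the other controls and so widened the spread. AcauleEVm014592, on chromosome 8 of both sets (g52797 and g55006), was at 71.4, 79.0 and 109 after freezing, against 404, 348 and 84.0 in control, so that control replicate 3 lay within the freezing range (limma adjusted p = 0.0272 with 5 libraries and 0.315 with 6). AcauleEVm012234, on chromosome 7 of set 2 at 49521690 to 49524272 (g51453), was at 170, 55.8 and 98.4 after freezing, against 894, 752 and 275 in control. AcauleEVm025317, on chromosome 3 of set 2 at 1002682 to 1003644 (g29369), was at 35.4, 59.0 and 27.8 after freezing, against 352, 763 and 97.2 in control. Both were between the groups in control replicate 3, nearer to freezing. AcauleEVm012085, on chromosome 9 of both sets (g57362 and g59622), was at 259, 420 and 458 after freezing, against 104, 103 and 72.7 in control. AcauleEVm008979, on chromosome 10 of both sets (g1719 and g3937), was at 341, 263 and 286 after freezing, against 117, 87.9 and 120 in control, and both just missed the threshold with 6 libraries (limma adjusted p = 0.0514 and 0.0551). Without a further library none of these 6 loci was called (limma adjusted p = 0.0506 to 0.226 over control replicates 1 and 2 and freezing replicates 1 to 3). The direction of each held, which the rule of no overlap between groups fixed in advance.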

How the data were processed

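Per the labels' protocols, the libraries were strand-specific and built from mRNA, after a column-based extraction of shoot RNA. The submitters' processing notes name Trimmomatic 0.39. The sources used here give no aligner, assembler, abundance program or build. The authors deposited a signal for each assembled transcript, which by its values and table name is TPM divided by a TMM factor. Library totals ran from 912356 to 1052633. These values keep no depth, which is unknown, so replicates alone give the precision. All value columns matched a sample by name, with 0 left over. A second table from the authors gives each placement a deposited score from 1 to 40 of unstated meaning, with 44.8% of rows at 40 and 54.3% at 3 or less. It places 71.6% of 245239 transcripts. Set copies left out 2317 transcripts placed on both sets or on contigs.

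Transcripts were summed to loci (pandas 2.3.3). Log2(signal + 1) was then fitted by limma 3.58.1 under R 4.3.3 with a variance trend, two-sided, and Benjamini-Hochberg adjustment over all units of a fit. This scale understates the change of low loci. The 5-library fit kept the same loci. Library measures were compared by exact permutation (scipy 1.17.1). Named loci were called, did not overlap between groups and averaged 10 or more in the group where they were higher. Per direction they were the 6 with the largest change, the 3 with the highest level and the 2 with the largest change in each placement class. To these came, per direction, the 3 with the highest level among loci called only without control replicate 3, and the 2 set copies per set with the largest change. Other pseudocounts, filters, scalings, units and left-out libraries were tried. Members, lists and rules were chosen with earlier results of these data known. Neighbour groups and the chromosome 3 window were chosen after their values were seen, as were the other loci named there and the unplaced loci.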

Additional observations from a re-analysis of the deposited data

How the results depend on the processing

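Beside 163 loci called with 6 libraries, limma called 44 with no filter on low values, 0 transcripts tested one by one (8307 at an unadjusted p under 0.05), 35 gene models, and 4 to 698 loci with a library left out. Other pseudocounts, the minimum of 5, median ratio rescaling, placed transcripts only and a 2-fold minimum gave 114 to 188. Beside 698 with 5 libraries, the count was 374 with the minimum of 5, 168 with no filter (61 of them among the 698), 303 with placed transcripts only, 342 gene models (189 higher and 153 lower), 1083 transcripts (648 and 435), and 0 to 79 loci when a further library was removed. Beside 41 set copies, the count was 17 with no filter and 19 with a pseudocount of 0.1, and 0 to 389 when a library was removed; the count of set ratios was 0 under all alternatives. The causes were not tested. Rescaling moved the median change of all loci by less than 0.1.

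With the replicate number as a block, limma called 0 loci (5104 unadjusted) and 0 set copies (4210 unadjusted) with 6 libraries, none of the 22 named loci among them, and 3415 loci (1652 higher and 1763 lower) with 5, where only the numbers 1 and 2 form pairs. Deviations of same-numbered libraries correlated at 0.280, 0.266 and 0.040, the last with control replicate 3. Freezing replicate 2 with control replicate 1 gave -0.326, and freezing replicate 1 with control replicate 2 gave -0.173. The sample titles give only replicate numbers and not every correlation was high, so the numbers were not taken as pairs. The count with 5 libraries depends on this choice. Each control except replicate 3 correlated best with its own number, a hint from the data only.

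With a library left out, freezing minus control ranged from -1809 to -31 for the number of loci at 1 or more, from -0.99 to 7.87 percentage points for the 100 most abundant loci, from -0.50 to 0.045 for the median level, from -7.96 to 2.25 points for placed signal and from -6.34 to 0.13 points for set 2. Without control replicate 3 the difference for set 2 was 0.13 points. The difference in median level was 1.13 with a minimum of 5, the opposite sign of -0.26 with a minimum of 1. All 28 named loci kept their direction under every alternative run for them. For left-out libraries and other pseudocounts, the rule of no overlap between groups fixed this in advance.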

Other observations

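The most abundant loci with no placement varied several-fold between libraries of the same group. AcauleEVm000251 was at 76892, 31675 and 38672 after freezing, against 86176, 45651 and 0.860 in control. AcauleEVm038198 was at 20409, 75.9 and 18566 after freezing, against 163, 49.99 and 0.152 in control, so that freezing replicates 1 and 3 exceeded every other library more than 100-fold. AcauleEVm034358 was at 10887, 52.5 and 20106 after freezing, against 30607, 9743 and 0.208 in control. AcauleEVm019688 was at 362, 242 and 6002 after freezing, against 492, 33.1 and 2.18 in control. None of these was called after freezing by limma with 6 or with 5 libraries, where 0 of the 64 loci at 1000 or more passed. What RNA these loci stand for is not known from the deposited tables.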
